A study of Mus musculus with 2 samples.

Results

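Chromosome 19, the smallest mouse autosome, had the highest share of antibody-enriched DNA relative to input of any autosome in a kidney map of 5-hydroxymethylcytosine (5hmC). It was chosen by that ratio, so its place at the top is a description and is not tested. Its members are the 3251 rows of chromosome 19 among the 92654 of the authors' peak list, and the 572 of 23419 autosomal bins of 100 kb on chromosome 19 that hold 50 or more input fragments. The tissue was kidney of male C57BL/6 mice, an inbred laboratory strain, at 6 weeks of age. One group is a hydroxymethylated DNA immunoprecipitation (hMeDIP) library, in which an antibody against 5hmC (Active Motif) pulled down DNA fragments that carry the mark. The other is an input library of the same tissue with no antibody. Each group has 1 library, the number of animals behind each is not given in the labels, and both are whole kidney, so all its cell types are averaged. Replicate error could therefore not be measured, no test between groups was run, and every interval given is a 95% exact (Clopper-Pearson) interval that covers counting error only.

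5hmC is made when TET enzymes oxidise 5-methylcytosine. In tissues whose cells rarely divide it is a lasting mark, known to lie over the bodies of transcribed genes and at enhancers and to be scarce in silent sequence. A chromosome's mean level of 5hmC can be described by how much of its sequence stands high and by how high each class of sequence stands.

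The hMeDIP library held 344755 fragments on chromosome 19, or 3.02% of its 11424027, and the input library held 202315, or 2.43% of its 8316507. The ratio of these shares was 1.24 (1.234 to 1.247), where 1 is the genome-wide mean of the libraries. Chromosome 11 followed at 1.23 (1.224 to 1.233) and chromosome 17 at 1.17 (1.168 to 1.178). The other 18 autosomes had a median of 1.02 and reached down to 0.848 on chromosome 3. The first place of chromosome 19 over chromosome 11 was therefore narrow, and it depended on a few stretches of chromosome 11. When 10 kb steps with no input or with over 5 times the median input were left out, chromosome 19 stayed at 1.24 (1.234 to 1.247) and chromosome 11, at 1.244 (1.239 to 1.249), ranked first. The steps left out of chromosome 11 held 5075 hMeDIP and 8286 input fragments, and 8 of them had extreme input. The fullest, from 3060001 to 3070000, had 625 hMeDIP and 1405 input fragments. On chromosome 19 no step passed that bound, and the fullest step held 71 hMeDIP and 69 input fragments.

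The mapped part of chromosome 19 ran from 3079721 to 61342427 (mm9), or 58.3 Mb. Its span takes in 584 bins, of which 12 had under 50 input fragments and were left out, with 275 hMeDIP and 318 input fragments in all. Of the left-out bins 8 begin between 3000001 and 9700001, 1 begins at 33700001 and 3 follow each other from 39700001. The tested bins held 18 to 2317 hMeDIP fragments (median 524) and 50 to 462 input fragments (median 368). The interval of a bin was 0.39 wide on the log2 scale at the median. Chromosome 19 had 3472 input fragments per Mb, sixth among 19 autosomes, against a median of 3370 on the others (range 2862 to 3571). Its median of 368 input fragments per tested bin was the highest, where those of the other autosomes ran from 340 to 363.

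A bin was called high when its log2 ratio was above 0.5 and its interval lay above 0, low when it was below -0.5 and its interval lay below 0, and middle otherwise. On chromosome 19, 194 of 572 bins (33.9%, 30.0 to 38.0) were high, where 22.9% of all autosomal bins were called high. Low bins numbered 211 (36.9%, 32.9 to 41.0), where 47.9% of all autosomal bins were called low. Middle bins made up the other 167 (29.2%), close to the 29.3% of the other autosomes. By share of high bins it ranked second, since 34.5% of the bins of chromosome 11 were high. The calls use the same fragments that chose the chromosome, so these shares are a description. They also depend on the scaling: set to the fragments outside peaks, which adds 0.40 to every log2 ratio, 47.0% of bins on chromosome 19 were high and 25% low, against 35.1% and 38.0% on the other autosomes. High bins then made up 65.3% of the called bins of chromosome 19, against 47.9% with all fragments. The bins nearest to the threshold for a high call stood at log2 ratios of 0.50 to 0.51 inside it and 0.48 to 0.50 outside it. At the threshold for a low call the nearest bins stood at -0.53 to -0.52 inside and -0.49 to -0.48 outside.

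**Figure D1:**
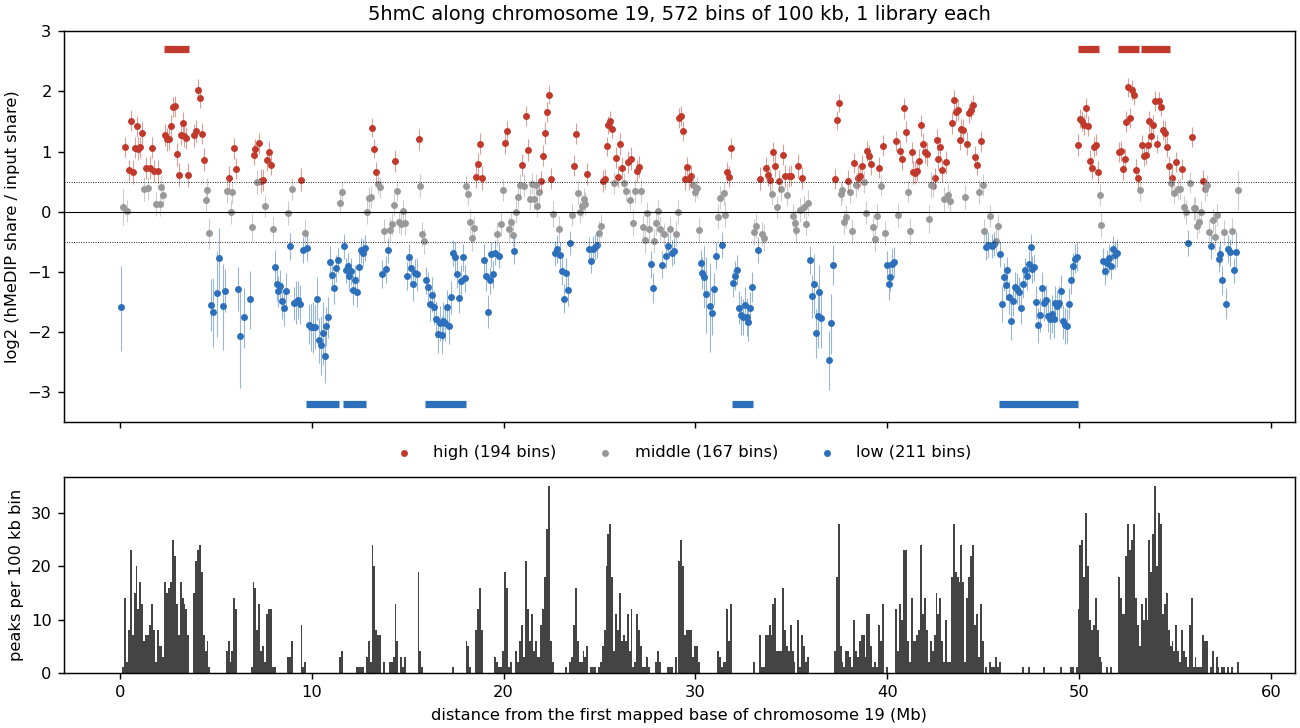
The upper plot gives the log2 ratio of each tested 100 kb bin of chromosome 19 (points, with 95% counting intervals) against its distance in Mb from the first mapped base, with dotted lines at the call threshold of 0.5 and bars for runs of high bins (top) or low bins (bottom) of 1 Mb or more. The lower plot counts peaks per bin. Stretches without a low bin (such as 3200001 to 7800000 and 43500001 to 48200000) and without a high bin (such as that after 59600000) lie among mixed ones, and the 4.1 Mb low run is followed directly by a 1.1 Mb high run.

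The classes are defined by the bin ratio itself, so the level inside a class is bounded by its thresholds. The 194 high bins of chromosome 19 had a pooled ratio of 2.16 (2.14 to 2.17), against 2.11 (2.107 to 2.114) in the 5166 high bins of the other autosomes. That is the sixth highest of 19, in a range on the other autosomes of 1.99 on chromosome 16 to 2.26 on chromosome 15. Middle bins stood at 1.05 (1.04 to 1.06) on chromosome 19 and 1.03 (1.029 to 1.033) on the others. Low bins stood apart most. Their pooled ratio was 0.474 (0.468 to 0.480) on chromosome 19 and 0.412 (0.411 to 0.413) on the others, and no other autosome came above the 0.447 (0.443 to 0.450) of chromosome 13.

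To weigh mix against level, the chromosome was recomposed from 3 classes. With its own mix of high, middle and low bins (shares of input fragments) at the class ratios of the other autosomes, it would have a ratio of 1.198. With its own class ratios at the mix of the other autosomes it would have 1.054. The tested bins gave 1.24 for chromosome 19 and 1.01 for the other autosomes, a gap of 0.233. The mix alone gave 81.2% of that gap and the levels alone 19.5%. Both standardised ratios were the highest among the 19 autosomes. For chromosome 11 the mix gave 80.6% and the levels 17.4% of its gap, and for chromosome 17 the mix gave 87.1% and the levels 7.21%. High bins held 34.9% of the input fragments and 60.7% of the hMeDIP fragments of the tested bins on chromosome 19, against 23.7% and 49.6% on the other autosomes. The split depends on how the classes are drawn, so it does not separate mix from level in general. With a log2 threshold of 1 the mix gave 91.6% and the levels 10.2% of the gap. With 5 classes, chosen after seeing the data, the mix gave 101% and the levels 0.541% of the gap. Finer classes leave less room for levels to differ inside them. The limits of the classes also moved, and the part of each change was not tested.

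Across the 19 autosomes the ratio of a chromosome followed its share of high bins closely (Pearson's r 0.984, Spearman's rho 0.968) and remained so at r = 0.973 without chromosomes 11 and 19. It followed the level of high bins less (r 0.594, rho 0.633) and the level of low bins least (r 0.419, rho 0.344, and r = 0.195 without chromosome 19). These correlations are over chromosomes of the same libraries, and the share and the levels are parts of the ratio itself. Base composition may vary with them and was not measured over whole chromosomes. The correlations are therefore given as a description.

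**Figure D2:**
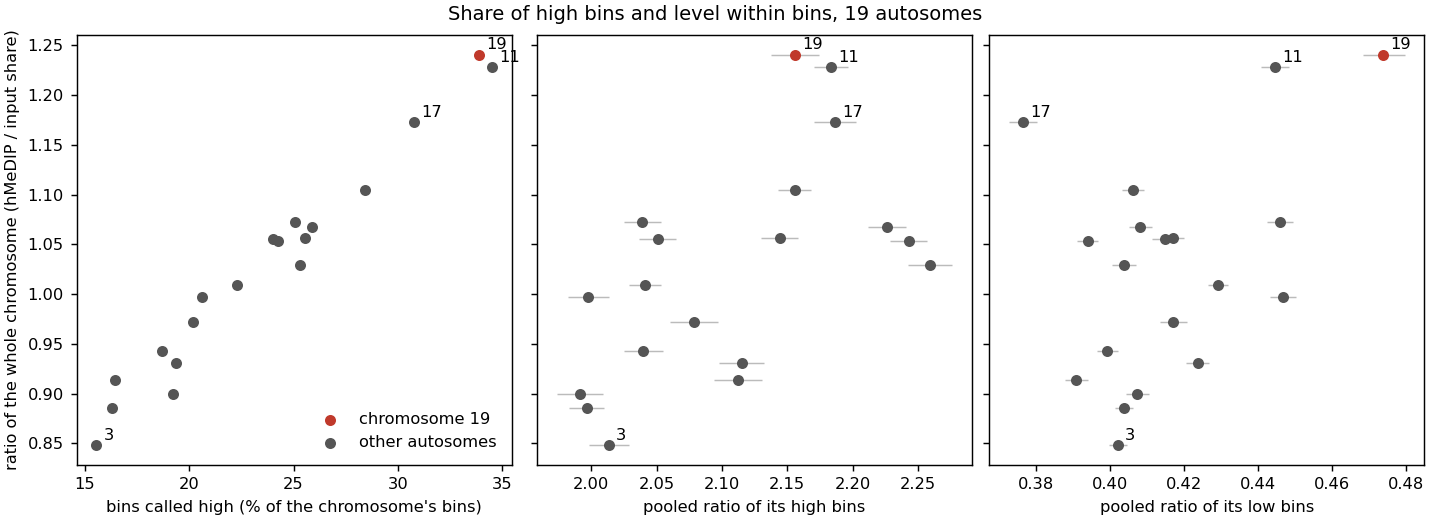
Each point is 1 of 19 autosomes, with its ratio of hMeDIP share to input share (vertical axis) against the share of its bins called high, the pooled ratio of its high bins and the pooled ratio of its low bins, with 95% counting intervals as grey bars. Chromosome 19 lies at the upper end of a nearly straight line against the share of high bins (33.9%), inside the cloud against the level of high bins (2.16) and apart from all others against the level of low bins (0.474).

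At every percentile compared the bins of chromosome 19 stood higher than those of the other autosomes, and most so at the 25th percentile. The median bin had a log2 ratio of 0.00 on chromosome 19 and -0.43 on the other autosomes. At the 25th percentile the values were -0.90 and -1.41, a difference of 0.51. The difference was 0.27 at the 5th percentile, 0.31 at the 75th, 0.20 at the 95th and 0.03 at the 99th. The highest bins thus stood about as high as elsewhere. Among the 1% of autosomal bins with the highest ratios, 234 in number, 7 lay on chromosome 19, which is 1.22% of its bins, and among the 234 lowest 2 did, which is 0.350% of its bins. Of its 572 bins 9 lay below a log2 ratio of -2, against 1356 of the 23419 on all autosomes, which is a smaller share. Above 2 lay 3 of the 572 and 122 of the 23419, which are similar shares.

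**Figure D3:**
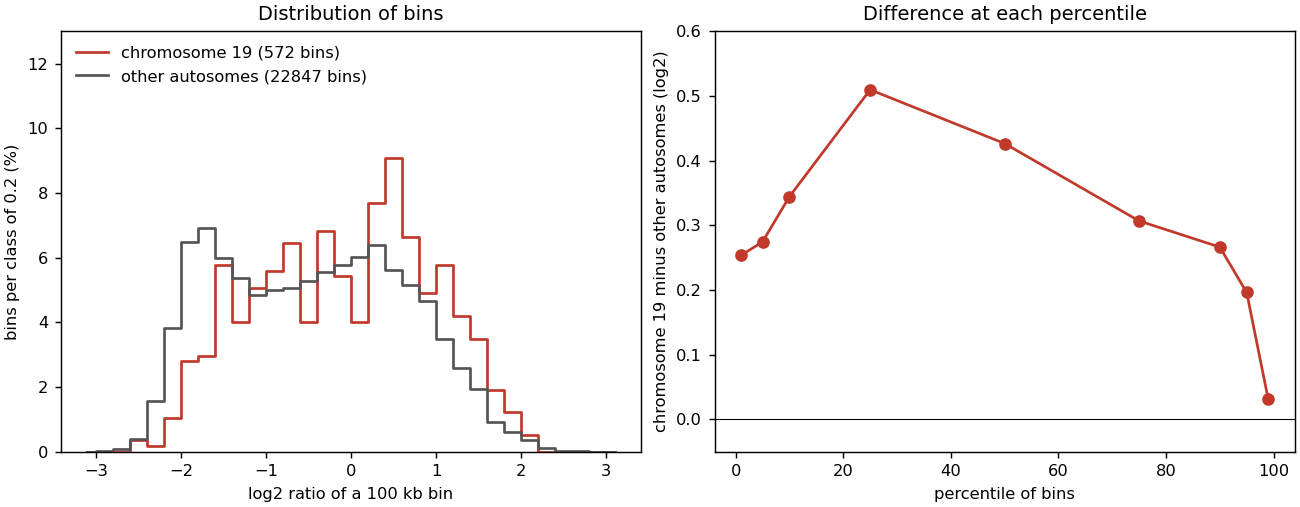
The left plot gives the percentage of 100 kb bins in classes of 0.2 of the log2 ratio for chromosome 19 (572 bins) and the other autosomes (22847 bins). The right plot gives the log2 ratio of chromosome 19 minus that of the other autosomes at 9 percentiles of their bins, which is 0.51 at the 25th and 0.03 at the 99th.

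The highest stretch of 10 Mb on chromosome 19, from 38000001 to 48000000, had a ratio of 1.60 (1.579 to 1.621), which ranked only thirteenth among the highest stretches of the 19 autosomes. That of chromosome 4 reached 2.47 (2.445 to 2.505) and that of chromosome 11 reached 2.08 (2.057 to 2.108). Longer chromosomes offer more stretches to choose from, so this rank is not free of chromosome length. With its highest 10 Mb left out of each autosome, chromosome 19 was still first at 1.17 (1.163 to 1.178), and chromosome 11 second at 1.15 (1.148 to 1.157), although this removed 17.2% of the covered length of chromosome 19 and 8.41% of that of chromosome 11. Against whole chromosomes, however, single segments decided the rank: without the sequence up to 10000000 chromosome 19 had 1.18 (1.176 to 1.189), without 40000001 to 50000000 it had 1.19 (1.182 to 1.197) and without 50000001 to 60000000 it had 1.202 (1.195 to 1.210), each below chromosome 11. Without any 1 of the other 4 segments of 10 Mb or less it stayed first, at 1.252 to 1.324. Without the first 5 Mb of mapped sequence of every autosome, the value was 1.18 (1.174 to 1.188) on chromosome 19 and 1.24 (1.232 to 1.242) on chromosome 11.

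**Figure D4:**
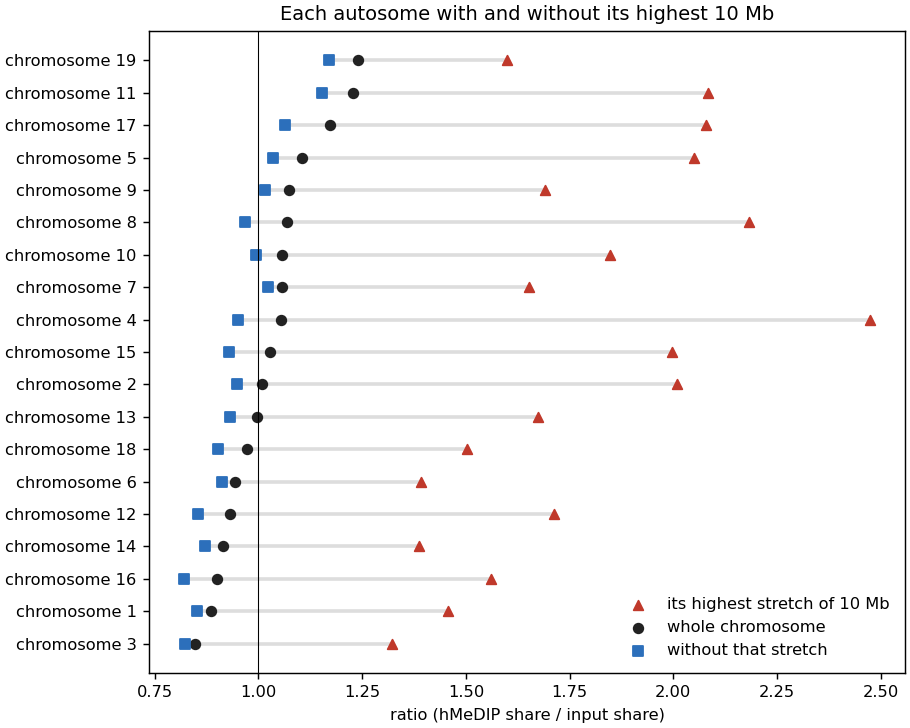
For each of the 19 autosomes, ordered by ratio, the triangle is its highest stretch of 10 Mb, the circle the whole chromosome and the square the chromosome without that stretch, all as the ratio of hMeDIP share to input share. Chromosome 19 has a modest highest stretch (1.60) and still the highest remainder (1.17).

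The level of 5hmC differed between segments of 10 Mb and within them. The proximal part, up to 10000000, was the richest segment, at 1.83 (1.795 to 1.858), with 36 high, 15 middle and 11 low bins and 564 peaks. The next segment, 10000001 to 20000000, was the poorest of full length, at 0.831 (0.819 to 0.843), with 14 high, 25 middle and 61 low bins and 273 peaks. The segments from 20000001 to 30000000 and from 30000001 to 40000000 were intermediate, at 1.19 (1.177 to 1.208) and 1.04 (1.021 to 1.050). The segments from 40000001 to 50000000 and from 50000001 to 60000000 stood at 1.48 (1.459 to 1.497) and 1.41 (1.389 to 1.424), with 716 and 773 peaks. Both were mixed: the one from 40000001 had 47 high, 30 middle and 23 low bins, and the one from 50000001 had 42 high, 18 middle and 40 low bins. The windows of 1 Mb from 50000001, 51000001 and 52000001 stood at 0.465, 0.332 and 0.406, and the window from 53000001 at 2.45. The distal end from 60000001 had 0.679 (0.652 to 0.707), with 0 high bins among 14. In windows of 1 Mb the ratio ran from 0.261 (0.240 to 0.284) at 13000001 to 14000000 up to 2.62 (2.524 to 2.713) at 55000001 to 56000000. Of 59 such windows 35 stood above 1, 9 above 2 and 9 below 0.5, and 5 held no peak.

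High runs on chromosome 19 had a median of 2 bins, as on the other autosomes. Of 61 runs of adjacent high bins, 4 reached 1 Mb, together 5 Mb with a pooled ratio of 2.47 (2.43 to 2.51). They held 25.8% of the high bins of chromosome 19, against 22.1% in such runs on the other autosomes. The first, from 5400001 to 6700000, had a ratio of 2.42 (2.34 to 2.51) and 195 peaks. A run also stops at a bin left out for low input. This one ended at the left-out bins from 6700001 to 6900000, and high bins resumed from 6900001 to 7500000. The other 3 lay close together towards the distal end. They were 53000001 to 54100000 at 2.37 (2.29 to 2.46) with 178 peaks, 55100001 to 56200000 at 2.56 (2.48 to 2.65) with 203 peaks, and 56300001 to 57800000 at 2.50 (2.43 to 2.57) with 277 peaks. The last is the longest, at 1.5 Mb, a length that put chromosome 19 among 4 autosomes tied at the eleventh place for their longest high run. On chromosome 17 that run reached 3.8 Mb. The longest run of a chromosome also depends on its left-out bins and on its length, and chromosome 19 is the shortest. Single high bins made up 27 of the 61 runs. The lengths depend on the scaling: set to the fragments outside peaks, 7 high runs reached 1 Mb and the longest measured 3.4 Mb, and with a log2 threshold of 1 a single high run did.

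Low runs were fewer than high ones and reached longer. Their median was 2 bins on chromosome 19 and 3 bins on the other autosomes. Of 44 low runs 5 reached 1 Mb, together 10.2 Mb with a pooled ratio of 0.416 (0.408 to 0.423). They spanned 12800001 to 14500000 at 0.390 (0.371 to 0.410), 14700001 to 15900000 at 0.535 (0.512 to 0.560), 19000001 to 21100000 at 0.389 (0.374 to 0.405), 35000001 to 36100000 at 0.371 (0.351 to 0.393) and 48900001 to 53000000 at 0.411 (0.3996 to 0.422). The last, at 4.1 Mb, was the longest low run of the chromosome, and the longest low run of every other autosome was longer, at 4.4 to 11.9 Mb. The 5 runs together held 14 peaks, 9 of them in the longest. Left-out bins cut low runs as well. All tested bins from 39000001 to 40300000 were low, but the left-out bins from 39700001 to 40000000 split them into runs under 1 Mb. The run from 12800001 had a median of 249 input fragments per bin, and the other 4 had medians of 331 to 385.5. The part of input depth in its level was not tested.

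A smaller share of the low bins of chromosome 19 lay in long runs, and their level was higher than elsewhere in long runs, with no difference resolved in shorter ones. On chromosome 19, 102 of 211 low bins (48.3%) lay in runs of 1 Mb or more, against 73.1% of low bins on the other autosomes. Runs were cut at left-out bins on every autosome, so some low bins beside such bins count in shorter runs. Low bins in shorter runs had nearly the same ratio on chromosome 19 as elsewhere, 0.534 (0.526 to 0.543) and 0.533 (0.531 to 0.534). Low bins in long runs stood at 0.416 (0.408 to 0.423) and 0.367 (0.366 to 0.367). Had the low bins of chromosome 19 the other autosomes' shares of long and shorter runs, their ratio would be 0.448, between its 0.474 and their 0.412. Low bins with no peak also differed, and stood at 0.444 (0.438 to 0.451) on chromosome 19 and 0.384 (0.383 to 0.385) on the others.

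By changes of class, chromosome 19 was also the most finely divided autosome. Adjacent bins changed class 3.20 times per Mb, and 2.09 to 2.98 times on the other autosomes. This count depends on the thresholds and was not recomputed with other ones. The steps themselves differed little in size. The median absolute step in log2 ratio was 0.330 on chromosome 19 and 0.317 elsewhere, and 8.51% and 7.35% of pairs stepped by over 1. The log2 ratios of neighbouring bins correlated at r = 0.838 on chromosome 19 (564 pairs) and 0.873 on the others. At 1 Mb the correlation was 0.217 and 0.469, and at 5 Mb -0.183 and 0.0997. Bins of one chromosome share their library and their sequence context, so these are descriptions. Of the 564 pairs, 12 (2.13%) stepped directly between a high and a low bin, against 1.02% of pairs elsewhere. The sharpest step lay at 35000001, with 1102 hMeDIP and 386 input fragments in the bin before it (log2 ratio 1.06) and 254 and 422 in the bin after it (-1.19). The sharpest upward step lay at 18600001, with 189 hMeDIP and 282 input fragments before it (log2 ratio -1.04) and 1062 and 336 after it (1.202). Steps of about 2 or more also lay at 12500001 and 43500001 (upward, 2.07 and 2.01) and at 9200001 (downward, -1.996).

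The highest bins of chromosome 19 clustered between 55600001 and 56000000, where 3 of the top 5 lay. First came 55600001 to 55700000, where 2317 hMeDIP fragments stood against 403 of input, for a log2 ratio of 2.07 (1.91 to 2.22), and 28 peaks lay over 63.1% of its sequence. The others were 7100001 to 7200000 at 2.03 (1.85 to 2.21), 55800001 to 55900000 at 2.02 (1.86 to 2.18), 25400001 to 25500000 at 1.94 (1.78 to 2.11) with 35 peaks, and 55900001 to 56000000 at 1.93 (1.77 to 2.10). Over all autosomes the first ranked 94th, so the strongest bins of the genome lie elsewhere. Outside their peaks these 5 bins still had log2 ratios of 0.69 to 0.90.

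The 5 lowest bins held no peak, and all had less input than the median bin. They were 40000001 to 40100000, where 45 hMeDIP fragments stood against 180 of input, at -2.46 (-2.96 to -1.98), 13700001 to 13800000 at -2.40 (-2.84 to -1.98), 13500001 to 13600000 at -2.22 (-2.72 to -1.74), 13400001 to 13500000 at -2.13 (-2.52 to -1.76), and 9300001 to 9400000 at -2.07 (-2.93 to -1.28). The last rests on 18 hMeDIP and 55 input fragments, so its place is imprecise. Of these 5, 3 lie in the low run from 12800001 to 14500000.

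The peaks of chromosome 19 were dense and, by fold over input, of ordinary strength. Their density was 55.8 per covered Mb, second to the 56.4 of chromosome 11 and above a median of 37.3 on the other autosomes. They covered 7.82% of the mapped length, against 7.77% on chromosome 11 and at least 3.64% elsewhere. A peak on chromosome 19 had a median width of 1195 bp (quartiles 902 and 1612), the widest median of 19, where those of the other autosomes were 1118 to 1184 bp. The median fold of a peak over input, with a pseudocount of 1 fragment, was 4.37 on chromosome 19 and 4.37 over the peaks of the other autosomes together. Most autosomes share this median. The median peak of chromosome 19 holds 28 hMeDIP and 4 input fragments, so the fold takes few values and small differences could be missed. With a pseudocount of 5 the value on chromosome 19 was 2.67. The median of the authors' score was 88.9 on chromosome 19 and 85.7 on the other autosomes. Summed over all peaks the ratio was 5.28, which ranked ninth. In 3204 peaks (98.6%) the interval excluded 1 from above, close to the 97.8% of peaks on the other autosomes, and in 47 it took in 1. Peaks held 34.3% of the hMeDIP and 8.06% of the input fragments of the chromosome. The peaks had been called on the same hMeDIP signal, so these values are not independent of the ratio.

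Sequence outside peaks also stood higher than on most autosomes. With fragments in peaks left out and both libraries scaled as before, the ratio of chromosome 19 was 0.886, against 0.889 on chromosome 11 and a median of 0.772 on the other autosomes. On this measure chromosome 19 was second. In its high bins the sequence outside peaks had a ratio of 1.36 (1.34 to 1.37), against 1.36 (1.361 to 1.366) in the high bins of the other autosomes, and in its low bins 0.464 (0.459 to 0.470) against 0.404 (0.403 to 0.405).

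By the authors' score, which rises with width (Spearman's rho 0.647 over the chromosome 19 peaks) more than with fold (0.441), the first peak spanned 46689248 to 46697341. It was 8094 bp wide and scored 1619.6, and its 338 hMeDIP against 35 input fragments gave 7.03 (4.96 to 10.3). It ranked 37th in the whole list. The second, at 43587887 to 43596113 (8227 bp), had a ratio of 6.65 (4.71 to 9.67). The other 3 of the top 5 lay in the segment up to 10000000. By falling score they were 5828543 to 5833151 at 8.01 (5.17 to 13.02), 7168281 to 7173570 at 9.998 (5.92 to 18.2) and 5950762 to 5956070 at 8.70 (5.37 to 14.95). These intervals overlap, so the order of the ratios among the 5 is not resolved.

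The widest peak of the chromosome, at 55853866 to 55864326, measured 10461 bp and was its only one over 10 kb, where 316 hMeDIP against 40 input fragments gave 5.75 (4.13 to 8.20). The peaks at 43587887 and 46689248 came next by width. After them, a pair near each other lay at 47374277 to 47382190 (7914 bp, ratio 4.60, 3.34 to 6.47) and 47486218 to 47494093 (7876 bp, ratio 6.40, 4.19 to 10.2). Peaks of 5 kb or more numbered 22, or 0.677% of the peaks of chromosome 19, against 0.605% on the other autosomes.

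Peaks on chromosome 19 stood close together. The median gap between neighbours was 2692 bp, and 3512 bp over the gaps of the other autosomes. When peaks with gaps of at most 5 kb were joined and blocks of 5 or more peaks kept, chromosome 19 had 165 blocks with 1620 of its peaks (49.8%). That was 2.83 blocks per Mb, narrowly above the 2.80 of chromosome 11, and 33.6 to 48.1% of the peaks of each other autosome lay in blocks. The first place was lost when gaps of up to 10 kb were joined, where chromosome 19 ranked second with 157 blocks, and a gap of 2 kb left 100 blocks. The blocks covered 4.58 Mb with a ratio of 3.73 (3.67 to 3.80), and the sequence between peaks inside them stood at 1.61 (1.56 to 1.65).

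The block with the most peaks, 56949769 to 57092705, joined 56 peaks over 142937 bp. Its 2726 hMeDIP against 531 input fragments gave 3.74 (3.40 to 4.11), with 1.69 (1.45 to 1.98) between its peaks. The second, 7128866 to 7253170, joined 36 peaks at 4.76 (4.28 to 5.30) and holds the peak at 7168281. Next came 55880469 to 55992428 with 34 peaks at 3.77 (3.40 to 4.19) and 55606307 to 55702848 with 30 peaks at 4.36 (3.92 to 4.87), which overlap the highest bins of the chromosome. The last of the 5 fullest, 53389204 to 53459102, joined 27 peaks at 3.69 (3.25 to 4.21). Thus 4 of the 5 fullest blocks lay between 53000001 and 57800000.

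Long stretches without peaks took up a smaller share of chromosome 19 than of most autosomes. On chromosome 19, 17 stretches of 500 kb or more had no peak, 16.4 Mb or 28.1% of the mapped length, where chromosome 14 had the most (45.3%) and only chromosomes 9 (27.9%) and 11 (20.9%) had less. Such stretches are defined by peaks called on the same hMeDIP signal, so a low ratio is in part set by the choice. The pooled ratio of the 17 was 0.441 (0.435 to 0.448), and each had an interval below 1, with values of 0.304 to 0.577. The longest, 12794129 to 14499942, measured 1706 kb and its 2439 hMeDIP against 4520 input fragments gave 0.393 (0.374 to 0.413). The longest stretch of every other autosome was longer, and these ran from 2998 kb on chromosome 11 to 7696 kb on chromosome 7, a comparison that also depends on chromosome length. The next were 18868841 to 20439343 at 0.363 (0.346 to 0.380), 38930390 to 40346497 at 0.496 (0.464 to 0.530), 34955895 to 36183274 at 0.408 (0.388 to 0.430) and 48939770 to 50135717 at 0.405 (0.386 to 0.426). The third of these had only 154 input fragments per 100 kb and holds 3 of the left-out bins, so a peak could be detected there less readily.

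Measures that do not come from the libraries could be set beside the ratio for whole chromosomes only. The gene table used here is RefSeq on GRCm38.p6, another build than the mm9 of the files, so no gene was placed on a bin or peak. In that table chromosome 19 has 705 protein-coding genes, or 12.1 per Mb of the mapped length in the files. That ranked 3 after chromosomes 7 (13.6) and 11 (13.5), against a median of 7.80 on the other autosomes. Over the 19 autosomes gene density and ratio were related (r 0.806, rho 0.819, and r 0.858 without chromosomes 7 and 11), but chromosome 7 had a ratio of only 1.06. Olfactory receptor genes, which serve smell and are silent in most other tissues, make up 63 of the 705 (8.94%), against a median of 2.36% elsewhere. Gene families known for roles in kidney or liver also sit there: 10 of the 25 Slc22a genes, a family of organic ion transporters, and all 15 Cyp2c genes of the table, which code for drug and fatty acid oxidases. All 21 Ms4a genes, a family of membrane proteins known from immune cells, lie there as well. Promoter windows of 300 bases in the RefSeq table held a median of 10 CG dinucleotides on chromosome 19, as on chromosome 11, where the 17 other autosomes with windows in the table had medians of 5 to 10. By the mean share of G and C bases in these windows (54.6%) chromosome 19 ranked only 8 among 18 autosomes, with chromosome 11 highest (55.9%). Whether gene density or CG content takes part in the ratio was not tested.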

How the data were processed

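Kidney hMeDIP and input libraries were compared. Per the submitters' processing notes, CASAVA, Bowtie 1.0.0 and the mouse build mm9 were used. Alignment options were not given in the sources used here. From each library the authors deposited 1 file of positions, with 350 bp stretches, their strand and their count of reads, together with 1 peak list from MACS, per the file headers, with a score per peak whose threshold is not given. From the values, a line was taken as 1 fragment and placed by its midpoint. Lines numbered 11424027 for hMeDIP and 8316507 for input. A ratio is the hMeDIP share over the input share, with an exact conditional binomial interval. The labels record no molecular identifiers, so reads need not be separate molecules. Peak density uses the length between the first and last mapped base. Coordinates are 1-based. Calculations used Python 3.11.15, numpy 2.4.6, pandas 2.3.3 and scipy 1.17.1, and were tested on simulated counts. The regions named are the 5 first by each rule, every run of 1 Mb or more and the 3 bins on each side of a threshold. The members, rules and lists were chosen with earlier results of these data known. Genes were to be named only where an mm9 annotation places them, so none is named on a region. Alternatives varied the scaling, read weighting, input minimum, bin size, threshold, fragment length, peak score, pseudocount and block gap.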

Additional observations from a re-analysis of the deposited data

Results flagged for a closer look

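The number of reads per position was not used in the comparisons. Positions with at least 2 reads made up 1.37% (1.33 to 1.41) of the hMeDIP library on chromosome 19 and 0.290% (0.267 to 0.314) of the input library there, and the value is listed here because it lies above the input. On the other autosomes the values were 1.33% (1.32 to 1.34) and 0.336% (0.332 to 0.340). No position of chromosome 19 held more than 4 reads in either library, and weighting by reads left its ratio at 1.24. The source of the repeated reads was not tested.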

How the results depend on the processing

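No paired analysis was possible because each group has 1 library and the labels give no replicate numbers. The 5 classes, the segments left out and the ranks under other counts were chosen after seeing the data. The share of high bins, the share of low bins, the class-mix ratio and the class-level ratio were 47.0%, 25%, 1.56 and 1.40 when scaled by fragments outside peaks, 47.7%, 24.65%, 1.58 and 1.42 with the median autosomal bin set to 0, 39.5%, 26.05%, 1.16 and 1.02 with fragments outside peaks only, and 17.1%, 22.2%, 1.22 and 1.03 with a threshold of 1. High bins were then 65.3%, 65.9%, 60.3% and 43.6% of the calls, against 47.9% in the report. Scaling outside peaks adds 0.40 and centring 0.42 to every log2 ratio. The class-mix and class-level ratios were 1.21 and 1.06 with at least 200 input fragments per bin, and 1.2445 and 1.01 with 5 classes. The ratio of chromosome 19 was 1.64 scaled outside peaks, 1.17 from fragments outside peaks only and 1.26 with at least 200 input fragments. With classes drawn in these ways the mix gave at least 74.0% of the gap and the low bins had the highest level of 19 autosomes, 5 classes apart, where low bins were not compared. Its rank by ratio fell to 2 with fragments outside peaks only (1.170 against 1.173 on chromosome 11), without 10 kb steps of extreme input, without the first 5 Mb, and without each of 3 of its 7 segments (up to 10000000, from 40000001 and from 50000001). Long high runs numbered 7, 8 and 1, and long low runs 5, 5 and 3, scaled outside peaks, centred and with a threshold of 1. Peak density was 29.3 per Mb among the 46327 peaks with the highest scores. For the median fold of peaks, pseudocounts of 0.5 and 5 gave 4.80 and 2.67, and scaling outside peaks gave 5.77. A gap of 2 kb left 100 blocks. The 18 named bins and peaks kept their direction, 12 within their interval when scaled outside peaks and 18 when weighted by reads. Apart from the values of single bins and peaks, 38 recomputed values moved. The other 36 stayed within an interval or within 1.5 times, or kept the first rank or their direction. The class-mix and class-level ratios have no interval of their own. They were judged by the relative width of the interval of the chromosome 19 ratio. The median peak rests on 28 hMeDIP and 4 input fragments, which limits single peaks.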
